A study of Sus scrofa with 36 samples.

Results

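The genes described here carry out the uptake and mitochondrial oxidation of fatty acids. They were chosen as the rows of the count table whose pig gene symbol is 1 of 32 listed symbols. Of these, 28 were found among 25880 gene identifiers, and all 28 passed the filter on low counts. CD36, SLC22A5, ECI1 and ACOT2 were not found by symbol and are not analysed here. The level of the group in a library is the mean over the 28 genes of log2 CPM, where CPM is a gene's share of the TMM-scaled library total in parts per 1e6.

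RNA was sequenced from left ventricle of 24 Yorkshire-landrace pigs in 36 libraries, 3 for each of 12 groups. Pigs had surgery on day 2 of age (Young) or day 14 of age (Old), and tissue was collected 1 day later (Early) or 1 week later (Late). Ages at harvest were 3 days in Young Early, 9 days in Young Late, 15 days in Old Early and 21 days in Old Late. In 12 infarcted pigs, branches of the left anterior descending and circumflex arteries were tied off for good, and each pig gave 1 biopsy of the infarct zone (IZ) and 1 of the border zone (BZ). The other 12 pigs had sham surgery and gave 1 biopsy of the anterior wall each, so the sham tissue does not come from the same hearts as the zones. The design sets each zone against sham tissue at each age and time, and the 2 ages at surgery against each other.

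Fatty acids enter a heart muscle cell through transporters and are bound in the cytosol by FABP3. Acyl-CoA synthetases such as ACSL1 activate them, and the carnitine shuttle, with CPT1 as its gate, carries them into mitochondria. There the acyl-CoA dehydrogenases, hydratase, hydroxyacyl-CoA dehydrogenases and thiolases shorten them in repeated rounds, and electrons pass through ETFA, ETFB and ETFDH to ubiquinone. After birth the mammalian heart turns from glucose and lactate toward fatty acids as its main fuel, and oxidation genes are known to fall in injured and failing heart muscle.

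The libraries held between 8.1 and 39.8 M counts, the fewest in Young Late Sham replicate 2 and the most in Young Early BZ replicate 2. That border zone library stood apart from the other 2 of its group in the fatty acid genes, with ETFB at 1784 CPM against 265 and 206, and ACADM at 15.5 CPM against 115 and 239. The counts of members called in comparisons that hold it are given with and without it. Levels of its group and most single-gene values that rest on it are given with it only. Preparation batch 1 held all Young Early libraries, batch 2 all Old Early libraries and batch 3 all Old Late libraries, while each Young Late group mixed batches 1 and 2, and 2 of the 3 Young Late infarcted pigs had their zones in different batches. RNA integrity was 7.8 to 8.4 in Old Late Sham and 7.1 to 7.6 in Old Late IZ, and 6.4 to 6.9 in Young Early Sham and 6.5 to 7.8 in Young Early IZ. Each zone and its sham group therefore share a batch or a mix of batches, but age and batch cannot be told apart in the Late and the Old sham comparisons. Of 16 cardiomyocyte structural markers 11 were found, and none of them was at 0 in any group. Their summed level was 84869 to 138001 CPM over the 12 sham libraries. In such bulk tissue, fewer heart muscle cells and less RNA of these genes per cell cannot be told apart.

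In sham hearts the members differed widely in abundance. Per length, as RPKM (CPM divided by the exonic length in kilobases), FABP3 led with 390 ± 133 (SD, n = 12 sham libraries), followed by ACADVL, which starts the oxidation of very long chains, with 373 ± 162. These first 2 differed by less than their spread. ETFB (250 ± 78.6), HADHB (240 ± 71.6), HADHA (192 ± 64.6) and the muscle gate CPT1B (185 ± 58.8) came next, and neighbours among these 4 also differed by less than their spread. At the other end stood LPIN1 with 7.11 ± 1.23, CPT1A with 4.60 ± 2.17 and UCP3 with 1.52 ± 1.20 RPKM. PDK4, an inhibitor of pyruvate dehydrogenase that responds to fasting, varied most for its mean (41.2 ± 44.8 RPKM), from 3.56 to 169 between single sham libraries. The 2 CPT1 genes thus stood at opposite ends of the order.

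The mean level of the 28 genes was highest in sham, lower in the border zone and lowest in the infarct zone at every age and time. In Young Early it was 7.62 ± 0.19 in sham, 7.32 ± 0.07 in BZ and 6.60 ± 0.09 in IZ (mean log2 CPM ± SD, n = 3). A week after surgery at the same age the values were 7.36 ± 0.16, 7.03 ± 0.14 and 6.80 ± 0.17. In Old Early they were 7.65 ± 0.18, 6.99 ± 0.41 and 6.62 ± 0.29. Old Late went lowest, with 7.19 ± 0.21, 6.51 ± 0.29 and 5.83 ± 0.13. No IZ library reached the lowest sham library of its age and time, as the plot of levels by library shows. The IZ difference from sham was -1.02 in Young Early, -0.56 in Young Late, -1.03 in Old Early and -1.36 in Old Late. Since the level is a score over chosen genes, it carries no test.

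**Figure D1:**
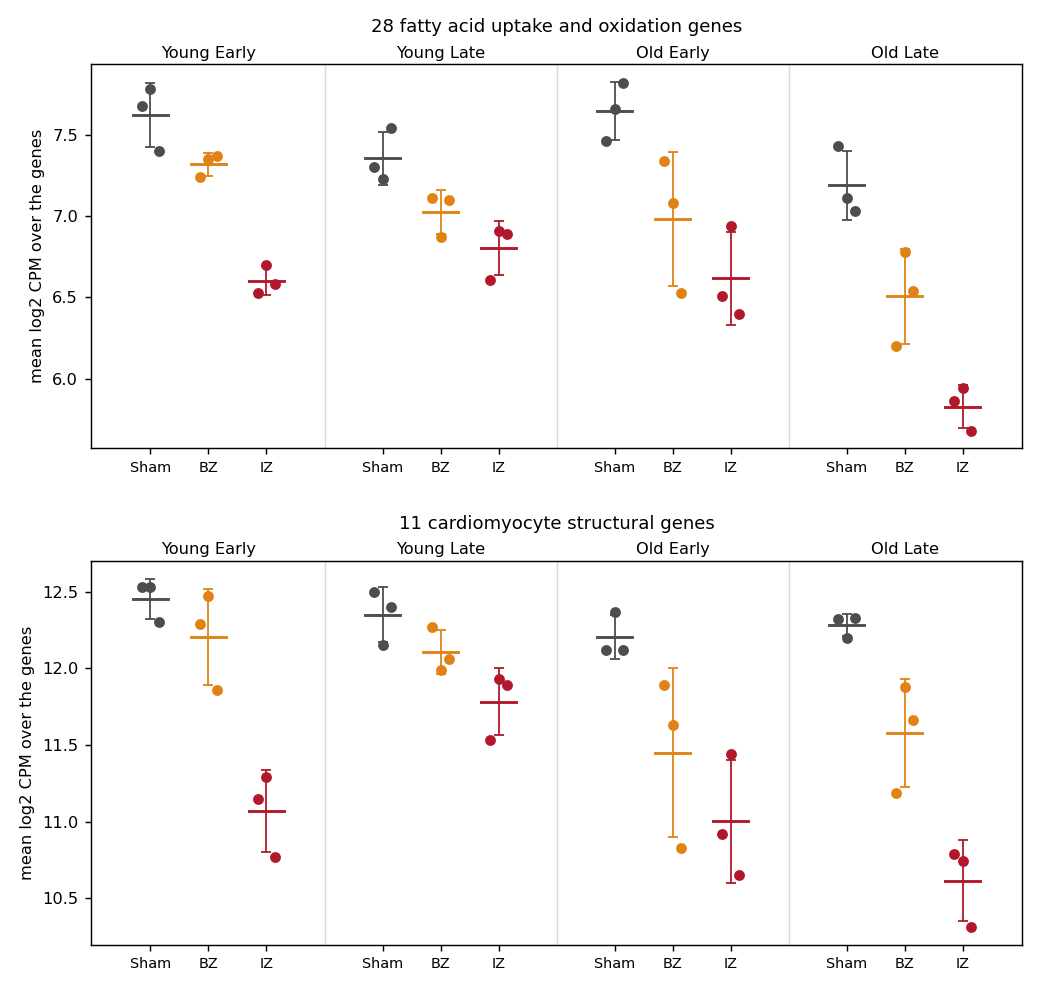
Mean log2 CPM over the 28 fatty acid genes (upper) and over 11 cardiomyocyte structural markers (lower) in each of the 36 libraries, by zone, age and time. Points are libraries, the horizontal line is the group mean and the bar is ± 1 SD (n = 3). The IZ of Old Late is lowest in both panels, at 5.83 and 10.61.

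The cardiomyocyte structural markers moved with these levels. Their mean log2 CPM differed from sham by -1.38 in Young Early IZ, -0.56 in Young Late IZ, -1.20 in Old Early IZ and -1.67 in Old Late IZ, a fall at least as large as that of the fatty acid genes in each. In the BZ the 2 differences were -0.30 and -0.25 in Young Early, -0.33 and -0.24 in Young Late, -0.66 and -0.75 in Old Early, and -0.68 and -0.71 in Old Late, with the fatty acid genes first. The level of the fatty acid genes minus that of the cardiomyocyte markers was -5.09 ± 0.20 in Old Late Sham and -4.79 ± 0.15 in Old Late IZ. Fibroblast markers moved the other way, with a summed level of 1273 to 1585 CPM in Old Late Sham and 16908 to 20895 CPM in Old Late IZ (9 of 10 markers found). Macrophage markers (10 of 10 found) went from 128 to 188 CPM in Old Late Sham up to 837 to 1248 CPM in Old Late IZ, and from 77.1 to 86.1 CPM in Young Late Sham up to 726 to 967 CPM in Young Late IZ. Neutrophil markers (5 of 7 found) went from 0.235 to 0.607 CPM in Old Late Sham, with S100A8 at 0, up to 160 to 387 CPM in Old Late IZ, with MMP8 at 0. The part of cell makeup in the changes of single genes was not tested.

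One day after injury the infarct zone of both ages showed lower levels for most of the pathway. In Young Early IZ 21 of the 28 genes fell and none rose, with a median log2 fold change of -1.08 against 0.08 over all genes tested. Of all 14537 genes, 27.2% were called there and 12.0% fell. A gene is called, and said to rise or fall, at a Benjamini-Hochberg adjusted p under 0.05 in the edgeR quasi-likelihood fit, and fold changes are log2 ± SE with 3 libraries per group. The number fell to 13 without Young Early Sham replicate 2, where 21% of all genes were called and 9.96% fell. It was 18 with RNA integrity as a covariate, where 3017 of 14537 genes were called. In Old Early IZ 20 genes fell and none rose (median -1.07 against 0.00), where 34.3% of all genes were called and 14.8% fell. A set of 17 genes was called lower in both of these comparisons, which have separate pigs and separate shams. That is 81.0% of the Young list and 85.0% of the Old list. The overlap is a description only, since its share over all genes is not given here.

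At 1 week after injury the counts were as follows. In Young Late IZ 10 genes fell and none rose (median -0.70 against 0.03), beside 30.2% of all genes called and 13.0% lower. The count was 6 without Young Late Sham replicate 3, where 22.9% of all genes were called. It was 16 when only the 2 groups entered the fit, beside 4369 of 12766 genes. In Old Late IZ 22 genes fell and 1 rose (median -1.53 against -0.04), where 49.1% of all genes were called, 24.0% lower and 25.1% higher. All 10 of the Young genes also fell in the older pigs, and 12 more fell there, among them FABP3, ACADVL, ACADM, HADHA and ETFDH. The share over all genes is not given for this overlap either. Whether single genes differed between the ages is tested further on.

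In the border zone of young hearts few members were called. In Young Early BZ none was, with a smallest adjusted p of 0.0937, 3 members at an unadjusted p under 0.05, and 2 members called lower by the DESeq2 test. There 1.11% of all genes were called. At an unadjusted p under 0.05, the edgeR fit with DESeq2 size factors held 2567 of 14537 genes there. The median over the 28 genes was -0.17, or -0.44 without BZ replicate 2, and no member was called in either fit. In Young Late BZ ACADS and LPIN1 fell (by 0.50 ± 0.17 and 0.53 ± 0.17, each called in 1 of 6 fits that left out 1 library), beside 14.2% of all genes called and 6.0% lower. In older hearts 13 members fell in Old Early BZ (22.5% of all genes called, 8.46% lower), and in Old Late BZ 15 fell and 1 rose (39.7% called, 19.7% lower, 20.0% higher). The Old Early count was 7 without BZ replicate 3, whose level of 6.53 was the lowest of the group. In that fit 15.7% of all genes were called and 5.43% were lower. The Old Late count was 9 without BZ replicate 1, at 6.20 the lowest there. The share of all genes is not given for that fit. The direct tests of the age difference called no member in the BZ at either time, with values given further on.

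**Figure D2:**
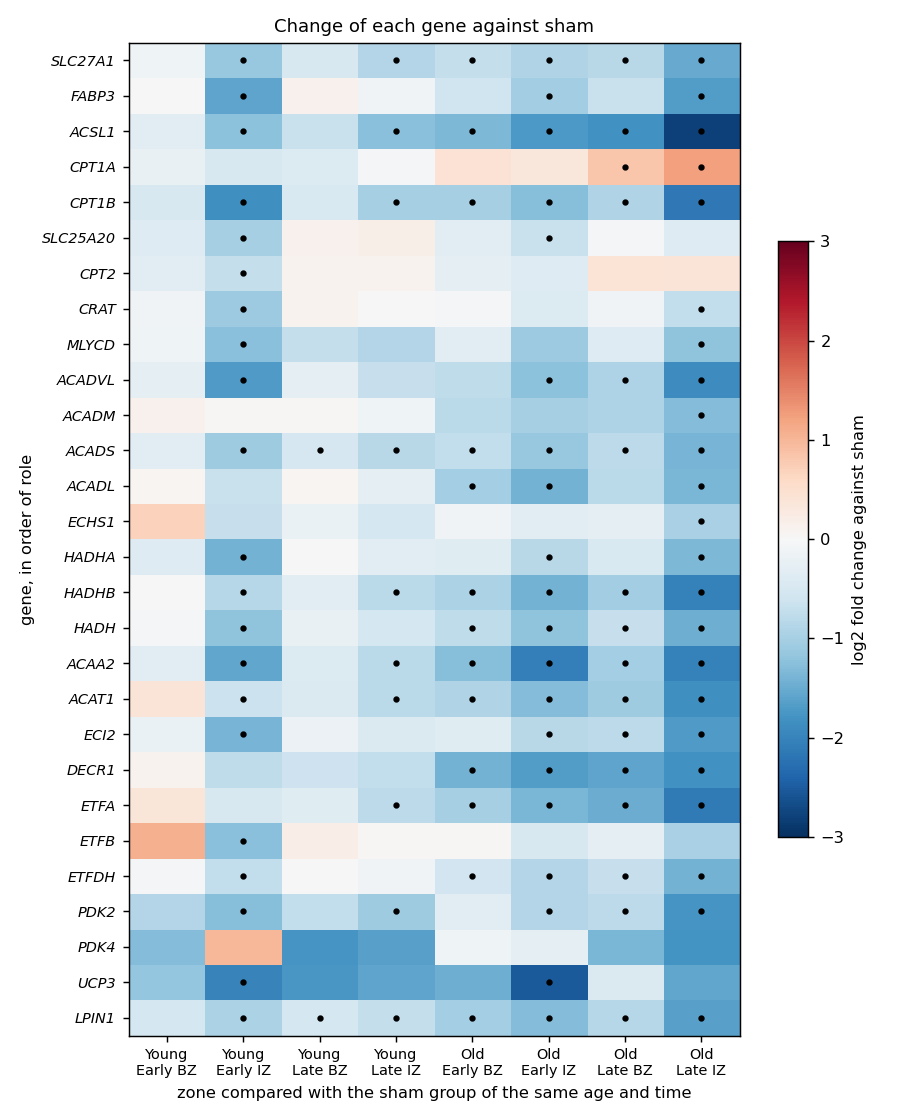
Log2 fold change of each of the 28 genes (rows, in order of role) in each zone against its own sham group (columns). Blue is lower and red is higher than sham, and a dot marks an adjusted p under 0.05. CPT1A is the only gene with a dot on red, in Old Late BZ (0.84) and Old Late IZ (1.23).

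Of the 2 uptake and binding genes measured, both fell in the infarct zone of Young Early, Old Early and Old Late, and SLC27A1 alone was called in Young Late. SLC27A1, a fatty acid transporter with acyl-CoA synthetase activity, was at 123, 111 and 131 CPM in the 3 Old Late sham libraries, at 52.2, 74.3 and 76.8 in BZ and at 44.7, 47.8 and 36.0 in IZ. It fell in all 4 IZ comparisons, from 0.89 ± 0.18 lower in Young Late to 1.51 ± 0.18 lower in Old Late, and in both Old BZ comparisons. The groups did not overlap in any of the 6. FABP3, which carries fatty acids through the cytosol of heart muscle cells, was at 1529, 1807 and 1058 CPM in Young Early Sham and at 388, 726 and 343 in the IZ. In Young Late it was at 1316, 779 and 1520 in sham and at 901, 1305 and 1166 in the IZ. These overlapped only through sham replicate 2 (779), the library with the fewest counts. The Old Late values were 707, 759 and 946 in sham and 319, 275 and 166 in the IZ. FABP3 thus fell in Young Early IZ (by 1.59 ± 0.33, adjusted p = 0.00102), Old Early IZ (by 1.05 ± 0.33) and Old Late IZ (by 1.67 ± 0.33), and was at -0.10 ± 0.33 in Young Late IZ. Of the exonic bases of FABP3, 66.9% are shared with ZCCHC17 on the opposite strand, and since the strand setting of the counting is not given in the sources used here, its values are uncertain to that extent.

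ACSL1, the main acyl-CoA synthetase of heart muscle (chromosome 15, 45866856 to 45963733, genome build not given in the sources used here), had the deepest fall of the group in Old Late. It stood at 466, 323 and 377 CPM in Old Late Sham, at 79.3, 118 and 132 in BZ and at 39.3, 84.3 and 45.2 in IZ. Sham lay above both zones, which overlapped, and the gene fell by 1.82 ± 0.34 in BZ and fell by 2.79 ± 0.36 in IZ (adjusted p = 3.51e-07). It fell in the other 3 IZ comparisons as well, by 1.23 ± 0.34 in Young Early, 1.25 ± 0.34 in Young Late and 1.72 ± 0.34 in Old Early. The Young Early call was lost without sham replicate 2 and the Young Late call without sham replicate 3.

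The carnitine shuttle split by isoform. CPT1B, the muscle form of the enzyme that commits fatty acids to mitochondria (chromosome 5, 154899 to 165121), was at 1387 ± 311 CPM in Young Early Sham (SD, n = 3, none under 1048) and at 338, 509 and 312 in the IZ. In Old Late it was at 730, 661 and 840 in sham, at 272, 505 and 414 in BZ, and at 206, 157 and 142 in IZ. It fell in all 4 IZ comparisons, by 1.84 ± 0.29 in Young Early, 0.99 ± 0.29 in Young Late, 1.27 ± 0.29 in Old Early and 2.14 ± 0.30 in Old Late. A gene without a symbol on the same strand shares 20.7% of the exonic bases of CPT1B, which no strand setting of the counting would separate. CPT1A, the form of liver and many other tissues (chromosome 2, 4233109 to 4296733), went the other way in Old Late. It was at 24.1, 17.9 and 12.8 CPM in sham, at 38.2, 30.6 and 29.2 in BZ and at 42.7, 38.1 and 48.0 in IZ, with no overlap of either zone with sham. The rise was 0.84 ± 0.28 in BZ (adjusted p = 0.0178) and 1.23 ± 0.28 in IZ (adjusted p = 0.000579), and the IZ call held without each library in turn. The BZ call was lost without sham replicate 3 or BZ replicate 1.

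The plot of CPT1A and CPT1B shows where the CPT1A difference lies. Its IZ level was 31.8 to 44.9 CPM in Young Early, 35.4 to 44.9 in Young Late, 40.6 to 65.3 in Old Early and 38.1 to 48.0 in Old Late, so the IZ ranges overlapped. Sham levels were 30.4 to 74.0 CPM in Young Early, 31.5 to 53.6 in Young Late, 29.7 to 53.4 in Old Early and 12.8 to 24.1 in Old Late. The Old Late Sham libraries lay below every other sham library and every IZ library. Between the Late sham groups CPT1A was 1.19 ± 0.28 lower in Old (adjusted p = 0.01), a comparison in which age and preparation batch cannot be told apart and in which the call was lost with RNA integrity as a covariate (-1.25 ± 0.34, adjusted p = 0.0709). CPT1A was -0.03 ± 0.28 in Young Late IZ, and the test of the age difference gave 1.26 ± 0.39 with an adjusted p of 0.0614, so it did not pass.

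**Figure D3:**
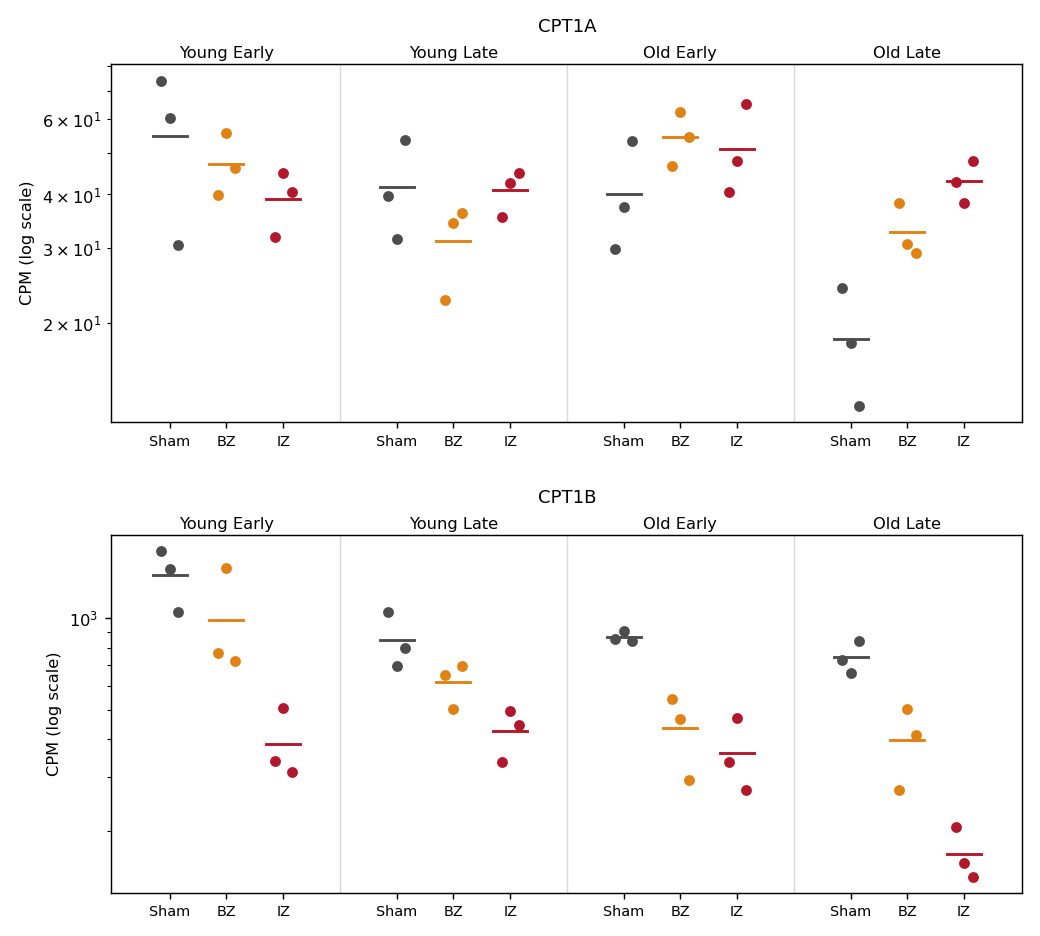
CPM of CPT1A (upper) and CPT1B (lower) in each library on a log scale, by zone, age and time. Points are libraries and lines are group means (n = 3). CPT1A in Old Late Sham, at 12.8 to 24.1 CPM, lies below the other sham groups, while CPT1B is lowest in Old Late IZ.

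The remaining shuttle genes changed less. SLC25A20, the carrier of acylcarnitine across the inner membrane, was at 105, 108 and 76.3 CPM in Young Early Sham and at 38.6, 58.4 and 47.7 in the IZ, where it fell by 1.00 ± 0.22. It also fell in Old Early IZ (by 0.66 ± 0.22), but stood at 0.18 ± 0.22 in the Young and at -0.39 ± 0.22 in the Old IZ a week after injury. CPT2, which restores acyl-CoA inside the mitochondrion, fell in Young Early IZ (by 0.72 ± 0.22, a call lost in 3 of 6 fits without 1 library), and was at 0.38 ± 0.21 in Old Late IZ. CRAT, which makes acetylcarnitine, fell in Young Early IZ (by 1.10 ± 0.30) and Old Late IZ (by 0.74 ± 0.30). The Old Late call of CRAT was lost in 5 of 6 fits that each left out 1 library, and 54.1% of its exonic bases are shared with DOLPP1 on the opposite strand. MLYCD, which removes the CPT1 inhibitor malonyl-CoA, fell in the same 2 comparisons, by 1.26 ± 0.46 and 1.20 ± 0.46, and its IZ libraries overlapped sham in Young Early.

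Among the acyl-CoA dehydrogenases, the long and short chain enzymes changed more firmly than the medium chain enzyme. ACADVL was at 2006, 1978 and 1506 CPM in Young Early Sham and at 470, 787 and 439 in the IZ, a fall of 1.70 ± 0.30 (adjusted p = 0.000211). It fell by 1.24 ± 0.29 in Old Early IZ and by 1.89 ± 0.30 in Old Late IZ, and was at -0.68 ± 0.29 in Young Late IZ, which did not pass. DVL2 on the opposite strand shares 43.2% of the exonic bases of ACADVL. ACADS, for short chains, fell in all 4 IZ comparisons, by 1.06 ± 0.17, 0.83 ± 0.17, 1.13 ± 0.17 and 1.39 ± 0.17 in the order Young Early, Young Late, Old Early and Old Late. Each of these 4 calls held without each library in turn. ACADM, for medium chains, was at 85.5, 133 and 120 CPM in Young Early Sham and at 109, 62.8 and 173 in the IZ, which overlapped fully (0.03 ± 0.49). In Old Late it was at 314, 244 and 230 in sham, at 111, 145 and 160 in BZ and at 73.0, 150 and 99.6 in IZ. It fell in Old Late IZ alone (by 1.29 ± 0.50, adjusted p = 0.0321), a call lost without sham replicate 1, IZ replicate 1 or IZ replicate 3. ACADL, for long chains, fell in Old Early IZ (by 1.42 ± 0.37) and Old Late IZ (by 1.38 ± 0.37) but not in either Young IZ (-0.67 ± 0.37 and -0.26 ± 0.37). Its sham level was 110 to 162 CPM in Young Early and 309 to 412 in Old Early. No test of an age difference in response called ACADL in the main fit.

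Of the 6 genes of the later steps of the cycle, 5 fell in Young Early IZ, 3 in Young Late IZ, 5 in Old Early IZ and 6 in Old Late IZ. HADHA and HADHB encode the 2 subunits of the trifunctional protein and lie head to head on chromosome 3 (112752617 to 112800061 and 112704024 to 112753038), sharing 405 exonic bases on opposite strands. HADHA was at 1766, 1803 and 1442 CPM in Young Early Sham and at 512, 731 and 636 in the IZ, and at 839, 789 and 649 in Old Late Sham against 388, 276 and 232 in the IZ. In Young Late the sham libraries, at 1095, 776 and 911, overlapped the IZ at 645, 819 and 735, but only through sham replicate 2 (776). It fell by 1.42 ± 0.29 in Young Early IZ, 0.84 ± 0.29 in Old Early IZ and 1.35 ± 0.29 in Old Late IZ, and was at -0.34 ± 0.29 in Young Late IZ. HADHB fell in all 4, most in Old Late IZ (by 2.03 ± 0.28). ACAA2, a mitochondrial thiolase, was at 497, 494 and 532 CPM in Old Early Sham and at 110, 170 and 89.9 in the IZ, a fall of 2.04 ± 0.29 (adjusted p = 6.99e-06). ACAA2 and ACAT1, the thiolase that splits acetoacetyl-CoA, fell in all 4 IZ comparisons and in both Old BZ comparisons. HADH fell in 3 IZ comparisons and missed the threshold in Young Late (-0.53 ± 0.22), while ECHS1 fell in Old Late IZ (by 0.97 ± 0.38, kept in 2 of 6 fits without 1 library).

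The 2 auxiliary enzymes for unsaturated chains were both called in Old Early IZ and Old Late IZ, 1 of them in Young Early IZ and neither in Young Late IZ. DECR1 was at 114, 105 and 133 CPM in Old Early Sham, at 40.7, 52.5 and 38.8 in BZ and at 25.9, 52.8 and 30.5 in IZ. It fell in all 4 Old comparisons, by 1.41 ± 0.37 in Early BZ, 1.68 ± 0.37 in Early IZ, 1.58 ± 0.37 in Late BZ and 1.82 ± 0.37 in Late IZ, and in no Young comparison. In Young Early it was at 40.2 to 58.9 CPM in sham and at 19.4 to 34.5 in IZ, so the Early IZ ranges of the ages overlapped. The Late IZ ranges, 28.9 to 55.6 in Young and 22.5 to 49.2 in Old, overlapped as well. No test of an age difference in response called DECR1 in the main fit. ECI2 fell in Young Early, Old Early and Old Late IZ, by 1.39 ± 0.27, 0.83 ± 0.26 and 1.71 ± 0.27.

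In the electron transfer chain of the pathway, ETFA and ETFDH fell most in Old Late. ETFDH, which passes electrons from the flavoprotein to ubiquinone (chromosome 8, 47608494 to 47657528), was at 299, 314 and 244 CPM in Old Late Sham, at 144, 203 and 187 in BZ and at 96.1, 126 and 101 in IZ. In Young Late it was at 261, 222 and 276 in sham, at 262, 225 and 272 in BZ and at 221, 253 and 234 in IZ, all overlapping. Sham overlapped the IZ there only through sham replicate 2 (222), the library with the fewest counts. The fall was 1.41 ± 0.20 in Old Late IZ (adjusted p = 1.85e-06), 0.74 ± 0.20 in Young Early IZ and 0.88 ± 0.20 in Old Early IZ, and the value was -0.10 ± 0.20 in Young Late IZ. PPID on the opposite strand shares 24.5% of its exonic bases. ETFA fell by 2.11 ± 0.30 in Old Late IZ. ETFB fell in Young Early IZ (by 1.26 ± 0.47), and 5 of the 6 fits that left out 1 library lost that call.

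Pyruvate dehydrogenase kinases restrain the entry of glucose carbon, and the 2 measured differed in how firmly they could be read. PDK2 was at 219, 163 and 190 CPM in Young Early Sham and 73.6, 96.7 and 65.9 in the IZ, and at 147, 133 and 143 in Old Late Sham and 47.9, 43.4 and 31.9 in the IZ. It fell in all 4 IZ comparisons, from 0.88 ± 0.28 lower in Old Early to 1.78 ± 0.28 lower in Old Late, and 52.2% of its exonic bases are shared with SAMD14 on the opposite strand. PDK4 was not called against sham in any zone. Its libraries scattered within groups, with 40.2, 163 and 601 CPM in Old Early Sham, 12.6, 163 and 67.9 in Young Late Sham and 74.5, 680 and 194 in Young Early IZ. In Young Late the BZ (22.1 to 24.6 CPM) and the IZ (23.6 to 28.4 CPM) were tight by comparison, and lay within the sham range.

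LPIN1, a phosphatidate phosphatase that also acts as a coactivator of oxidation genes, was among the most even members. It was at 50.6, 41.2 and 36.9 CPM in Young Late Sham, 30.1, 25.5 and 33.3 in BZ and 23.8, 27.5 and 27.0 in IZ. In Old Late the values were 68.2, 55.2 and 58.6 in sham, 26.8, 30.2 and 43.1 in BZ and 17.0, 24.3 and 17.1 in IZ. LPIN1 fell in all 4 IZ comparisons, by 0.96 ± 0.17, 0.72 ± 0.17, 1.29 ± 0.17 and 1.64 ± 0.18 in the order used above, and each of these calls held without each library in turn. UCP3, a mitochondrial carrier linked to fatty acid oxidation, had few reads, from 0 to 212 counts a library. It was at 3.08, 3.57 and 3.03 CPM in Young Early Sham and at 0.867, 0.767 and 0.768 in the IZ, and fell by 2.00 ± 0.64 there and fell by 2.52 ± 0.63 in Old Early IZ. In Old Late it was near the counting limit in all 3 groups, with 20, 3 and 0 counts in sham and 4, 1 and 6 in the IZ, and no fold is read from it.

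The comparison of ages asks whether a zone responded differently after injury on day 14 than on day 2. In the Late IZ the response was lower in Old for 25 of 28 genes by sign, with a median difference of -1.0 against -0.04 over all genes. Of these, 2 passed the test: ETFDH (-1.31 ± 0.28, adjusted p = 0.0159) and LPIN1 (-0.92 ± 0.25, adjusted p = 0.0348). In this comparison 3.67% of all genes were called and 2.35% were lower. ECI2 (-1.27 ± 0.37, adjusted p = 0.0514), FABP3 (-1.57 ± 0.46, 0.0534) and ACAT1 (-1.02 ± 0.31, 0.0558) came next and did not pass. The count was 7 without Old Late IZ replicate 2, with 6 lower and 1 higher. It was 5 without Young Late Sham replicate 3. It was 0 without Young Late Sham replicate 2, Young Late IZ replicate 3 or Old Late IZ replicates 1 or 3. Of all genes, 4.48% were called without Young Late Sham replicate 3, 0.57% without its replicate 2 and 0.291% without Young Late IZ replicate 3. The shares without an Old Late IZ library are not given here. With only these groups in the fit 9 members were called, 8 lower and 1 higher, beside 800 of 13929 genes. Without mitochondrial genes 1 member was lower and 1 higher. The plot of Young and Old Late IZ shows both values for each gene.

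**Figure D4:**
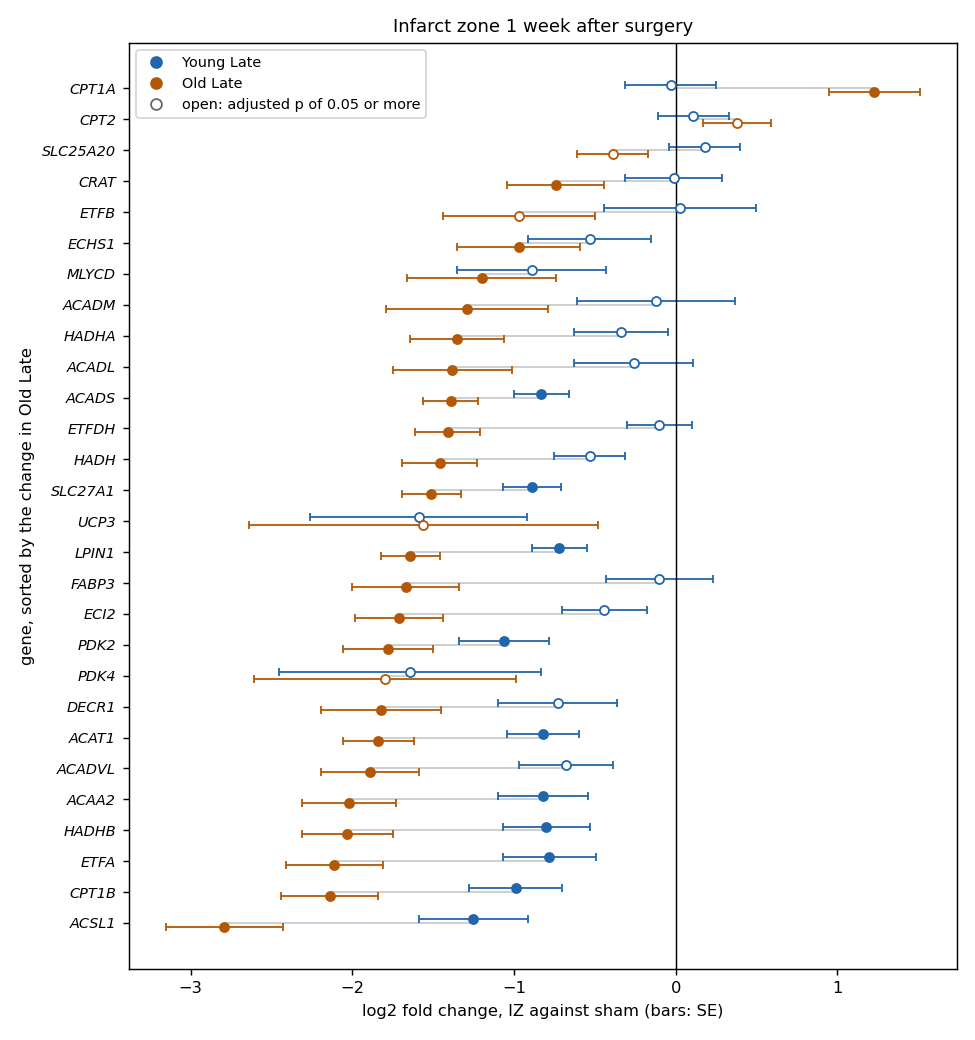
Log2 fold change of IZ against sham 1 week after surgery for each of the 28 genes, in Young Late (blue) and Old Late (brown), with the SE as bars. Filled points have an adjusted p under 0.05 against their own sham group. ETFDH is at -0.10 in Young and -1.41 in Old.

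Earlier after injury the ages did not separate by this test. No member was called in the Early IZ difference (median 0.10, smallest adjusted p of 0.164, 3 members at an unadjusted p under 0.05, 0 by DESeq2), where 0.915% of all genes were called. The Early BZ difference also had none called (median -0.52, smallest adjusted p of 0.0544 for ACAT1, 10 members at an unadjusted p under 0.05, 2 by DESeq2), with 0.220% of all genes called. Without Young Early BZ replicate 2, the library that stood apart, 7 members had a lower response in Old: DECR1 (-1.92 ± 0.44), ETFA (-1.57 ± 0.41), ACADM, ACADL, ACSL1, HADHB and ACAT1. In that fit the median over the 28 genes was -0.21, nearer to 0, and 15.3% of all genes were called, 6.98% lower. The Late BZ difference had none called (median -0.46, smallest adjusted p of 0.0896, 5 members at an unadjusted p under 0.05, 1 by DESeq2), beside 1.09% of all genes. These shares of all genes are at the adjusted threshold. At an unadjusted p under 0.05, the edgeR fit with DESeq2 size factors held 3813 of 14537 genes in the Early IZ difference. It held 2625 in the Early BZ and 2501 in the Late BZ difference.

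Time after injury was compared within each age. In young hearts the IZ response was higher at 1 week than at 1 day for 23 of 28 genes by sign (median difference 0.41 against 0.03 over all genes). FABP3 (1.49 ± 0.46, adjusted p = 0.0348) and SLC25A20 (1.18 ± 0.32, adjusted p = 0.018) passed, which is 7.1% of the members. Of all genes 12.3% were called and 6.12% were higher, so members passed at no more than about the general rate. Both calls were lost with RNA integrity as a covariate (adjusted p = 0.09 for FABP3 and 0.053 for SLC25A20), and leaving out 1 library kept FABP3 in 5 of 12 fits and SLC25A20 in 10 of 12. In the Young Early IZ these 2 genes were below every sham library, and in the Young Late IZ both overlapped sham. FABP3 did so only through Young Late Sham replicate 2, the library with the fewest counts. Without that library no member was called in this time difference, beside 4.59% of all genes. In old hearts no member was called (median -0.51 against -0.08, smallest adjusted p of 0.167, 7 members at an unadjusted p under 0.05, 0 by DESeq2), with 4.53% of all genes called. At an unadjusted p under 0.05, the edgeR fit with DESeq2 size factors held 2495 of 14537 genes there.

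Some members differed between sham groups of different age, not in 1 direction, and at a share no higher than that of all genes. Members called were 25.0% in the Early, 7.1% in the Late and 3.6% in the Young sham comparison. Between the Early shams, 15 against 3 days old, ACADM, ACADL, DECR1, ETFA and HADHB were higher in the older pigs and ACADVL and CRAT were lower, where 31.1% of all genes were called, 17.5% higher and 13.6% lower. ACADM was at 312, 252 and 471 CPM in Old Early Sham against 85.5, 133 and 120 in Young Early Sham, a difference of 1.62 ± 0.50. ACADL was at 344, 309 and 412 against 118, 162 and 110 (1.45 ± 0.37). DECR1 was at 114, 105 and 133 against 40.2, 58.9 and 50.3 (1.23 ± 0.37). ACADVL went from 2006, 1978 and 1506 down to 994, 911 and 889 CPM (-0.97 ± 0.29), and the same gene fell by 0.97 ± 0.29 between Young Early and Young Late Sham, the 1 member called there, beside 8.74% of all genes called and 4.36% lower. That second call was kept in 1 of 6 fits without 1 library, and no member was called there with batch as a term or with RNA integrity as a covariate. CRAT went from 944, 776 and 724 down to 526, 381 and 483 CPM (-0.81 ± 0.30), a call lost without any 1 of the 6 libraries.

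These shams were also prepared in different batches, with batch 1 for Young Early and batch 2 for Old Early, and their RNA integrity was 6.4 to 6.9 and 7.1 to 7.6. With RNA integrity as a covariate ACADL alone was called (1.18 ± 0.38, adjusted p = 0.0464). With batch as a term, which the mixed Young Late groups make possible, ACADVL alone kept its call (-1.20 ± 0.39, adjusted p = 0.0493), and ACADL stood at 1.36 ± 0.49 (adjusted p = 0.0668) and ACADM at 1.55 ± 0.66 (adjusted p = 0.107). Within Young Late Sham, the single batch 1 library had 132 CPM of ACADM against 106 and 178 in the batch 2 libraries. ACADL alone was called in every fit that left out 1 library. The count was 1 without Young Early Sham replicate 1, where 14.2% of all genes were called. In the Late shams, 21 against 9 days old, UCP3 and CPT1A were lower in Old, beside 10.9% of all genes called and 3.92% lower, and neither with RNA integrity as a covariate. For UCP3 this rests on 20, 3 and 0 counts against 40, 26 and 64, and the fitted value of -3.23 ± 0.75 depends on those few reads. No member was called between the Old shams (smallest adjusted p of 0.0503, 9 at an unadjusted p under 0.05, 4 by DESeq2), where 0.0275% of all genes were called. At an unadjusted p under 0.05, the edgeR fit with DESeq2 size factors held 1416 of 14537 genes there.

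**Figure D5:**
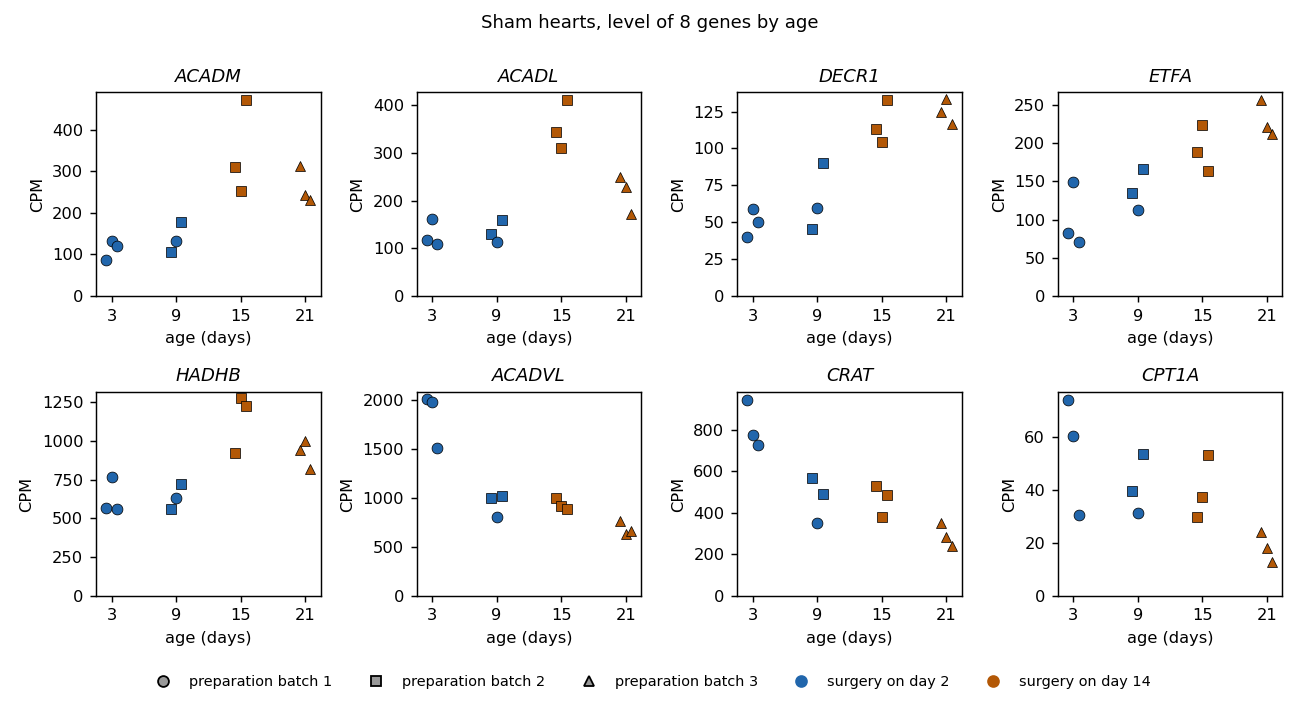
CPM of 8 genes in the 12 sham libraries by age at harvest in days, with the marker shape giving the preparation batch and the colour the age at surgery. Points of 1 age are spread sideways for sight only. ACADM, ACADL and DECR1 are higher at 15 than at 3 days, and ACADVL and CRAT are lower.

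The infarct zone was also set against the border zone of the same pigs, with the pig as a block. In Young Early 18 members were lower and 1 higher in the IZ (median -0.83 against 0.06), where 10.7% of all genes were called, 6.68% lower and 4.03% higher. FABP3 was at 909, 2355 and 1152 CPM in BZ and 388, 726 and 343 in IZ (-1.56 ± 0.19, adjusted p = 0.00681), and CPT1B was at 771, 1465 and 723 against 338, 509 and 312 (-1.31 ± 0.20). ETFB had the lowest value, -1.65 ± 0.33, or -0.97 without BZ replicate 2, in which it was at 1784 CPM. PDK4 was higher in the IZ, at 74.5, 680 and 194 CPM against 29.1, 80.9 and 82.6 (1.87 ± 0.42, adjusted p = 0.018), though the zones overlapped and the call was lost without pig 2 of that group. Without that BZ library 9 members were called, all lower, and also 9 without the IZ library of the same pig. Leaving out either library drops that pig from the paired comparison. Leaving out a library of another pig gave 11 to 13, beside 3.34% to 10.6% of all genes.

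In Old Late 10 members were lower in the IZ than in the BZ and none higher (2.05% of all genes called, 1.61% lower), with CPT1B (-1.24 ± 0.20, adjusted p = 0.029), FABP3 (-1.05 ± 0.19) and PDK2 (-1.03 ± 0.24) at the front. None of these calls was kept in any of the 6 fits that left out 1 library. Each such fit drops a whole pig from the paired comparison, so the 6 fits amount to leaving out each of 3 pigs. Nor was any call kept when the pig of BZ replicate 3 was taken from a conflicting label. No member was called in Young Late (smallest adjusted p of 0.375, 4 at an unadjusted p under 0.05) or in Old Early (0.696, 4 at an unadjusted p under 0.05), and 0 members were called there by DESeq2. In both, 0% of all genes were called. At an unadjusted p under 0.05, the edgeR fit with DESeq2 size factors held 1407 of 14386 genes in Young Late and 913 in Old Early.

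Genes around the pathway were read from lists. Regulators of fatty acid oxidation (10 of 10 found) include the nuclear receptors PPARA and ESRRG and their coactivators. In Old Late IZ 8 of them fell and 1 rose (median -2.33 against -1.53 for the 28 fatty acid genes), led by KLF15 (-3.51 ± 0.57) and ESRRB (-2.92). In Old Late BZ 8 fell and 1 rose, led by PPARA (-2.84 ± 0.55) and ESRRG (-2.22). Young Late IZ had 5 lower, led by KLF15 (-2.74 ± 0.57) and PPARA (-2.55 ± 0.67), Old Early IZ had 6 lower and 1 higher, and Young Early IZ had 2 lower, PPARGC1B (-0.80) and ESRRA (-0.66). PPARD was the 1 regulator that rose in the Old zones, by 0.54 ± 0.18 in Late IZ.

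Other oxidation enzymes are given by their counts. Among 17 further mitochondrial genes, 13 fell and 1 rose in Old Late IZ (median -1.44), 11 fell and 2 rose in Old Early IZ, 8 fell and 1 rose in Young Late IZ, and 7 fell and 2 rose in Young Early IZ. ACSL4, another acyl-CoA synthetase, rose by 2.12 in Young Early IZ, where ACSL1 fell. Of 12 peroxisomal genes, 8 fell in Old Late IZ, 9 in Old Early IZ, 2 in Young Late IZ and 4 in Young Early IZ, and none rose. Among ketone body genes (4 tested), OXCT1, which starts ketone use, was at -1.98 in Old Late IZ and BDH1, which interconverts the ketone bodies, at -2.43. ACAT2 rose by 2.13 in Old Early IZ, at another time and in other pigs, so these values do not show a split within 1 comparison.

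Genes of glucose entry and of lipid supply were counted too. Of 10 pyruvate dehydrogenase and malonyl-CoA genes, 7 fell in Old Late IZ, led by PDHX (-2.20) and PDHA1 (-2.17), 6 fell in Old Early IZ, 1 fell in Young Late IZ, and 4 fell and 1 rose in Young Early IZ. Of 11 other uptake and lipolysis genes, 3 rose and 3 fell in Old Late IZ, with LPL, which frees fatty acids from circulating lipid, at -2.49 and its inhibitor ANGPTL4 at 1.79. Between the Late shams LPL was 0.91 ± 0.27 higher in Old (adjusted p = 0.0305) and GPIHBP1 differed by -1.35 (adjusted p = 0.0177). Counts of these lists are descriptions, beside the shares of all genes called given above.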

How the data were processed

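Stranded TruSeq libraries of polyA RNA were sequenced on a NextSeq with paired reads of 76 bp, per the labels' protocols. The submitters' processing notes list Trimmomatic 0.36, STAR, featureCounts (Subread 1.5.1) and bcl2fastq 2.19.0.316. The genome build, annotation and strand setting are not given in the sources used here. The authors deposited unnormalized read counts for each gene identifier, per the file headers. Symbols came from a table of pig gene names, which matched 14857 of 25880 identifiers.

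Genes were filtered with filterByExpr (minimum count 10, minimum total 15), which kept 14537. The main test was the robust quasi-likelihood test of edgeR 4.0.16 (R 4.3.3, TMM scaling), with 1 mean for each of 12 groups. IZ was compared with BZ in 24 libraries with the animal as a block (14386 genes). P-values were Benjamini-Hochberg adjusted over all genes tested in each of 22 comparisons. CPM used the TMM factors, with a prior count of 2 on the log2 scale. Same-pig zones deviated together in Young Early, Old Early and Old Late (correlations of 0.45 to 0.67), but not in Young Late (-0.20, -0.04 and -0.05). Libraries of a group are separate pigs.

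The fit was tested on simulated data for Young Early IZ against sham with 14439 genes. It called 31.6% of 98 genes changed by a log2 of 1 and 83.8% of 99 changed by 2. Few genes changed in that simulation, while 27.2% were called in the data. The adjustment was therefore stricter there, and these rates do not carry over to the data. The genes and lists were chosen with earlier results of these data known. Genes given in every library are a fixed panel (FABP3, ACSL1, CPT1A, CPT1B, ACADM, HADHA, ETFDH, PDK4, PDK2, UCP3 and LPIN1), up to 3 called members with the largest rise and fall in a comparison, and members called in an age difference; other lists give counts and at most 2 named genes per comparison. Some of these are given for the comparison in which they stand out. Alternatives were DESeq2 1.42.0 (size factors and test), no count filter, the compared groups alone, batch, RNA integrity, limma-voom (3.58.1) with an animal block, no mitochondrial genes, and each library left out. The earlier edgeR estimate of the spread was added after seeing the data.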

Additional observations from a re-analysis of the deposited data

Results flagged for a closer look

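Differences between responses that passed their own test are listed here. In the Late IZ, the response of ETFDH was -1.31 ± 0.28 (log2, Old minus Young, edgeR quasi-likelihood adjusted p = 0.0159). It passed in 8 of 12 fits that left out 1 library, and its adjusted p ran from 0.000913 to 0.0266 over 9 other settings. LPIN1 differed by -0.92 ± 0.25 (adjusted p = 0.0348), passed in 3 of 12 such fits, and ran from 0.0144 to 0.0795 over the settings.

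In young hearts, the IZ response of FABP3 was 1.49 ± 0.46 higher at 1 week than at 1 day (adjusted p = 0.0348). It passed in 5 of 12 fits that left out 1 library, and its adjusted p was 0.0146 to 0.09 over 9 settings. SLC25A20 was 1.18 ± 0.32 higher (adjusted p = 0.018), passed in 10 of 12 fits, and ran from 0.00435 to 0.053. The largest of these p-values came with RNA integrity as a covariate for both genes. These 2 are 7.1% of the members, beside 12.3% of all genes called and 6.12% called higher, so about the general rate. In these 2 comparisons the Young Late groups mix preparation batches 1 and 2.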

How the results depend on the processing

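Counts below are fatty acid genes called. No called value changed sign in any setting. Among settings that keep all libraries, of the 4 IZ comparisons with sham only Young Late moved by over 1.5 times (16 with the 2 groups alone, 10 in the report). With batch as a term the 8 zone counts stayed close to those reported, except Young Late BZ (1). Outside Young Late each zone lies in 1 batch with its sham group, so this term could not shift those fold changes.

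The DESeq2 test called 2 in Young Early BZ, 4 in Young Late BZ, 2 in the Early BZ age difference, 9 in the Late IZ and 1 in the Late BZ age difference, 4 in the Young IZ time difference, 11 between Early shams, 4 between Young shams, 4 between Old shams and 16 in Old Late IZ against BZ. With the compared groups alone the counts were 9 for the Late IZ age difference, 8 for the Young IZ time difference, and 18, 9, 3 and 8 for the Early, Late, Young and Old shams. With RNA integrity as a covariate they were 1 in Young Late BZ, 0 in the Young IZ time difference, 1 in the Early shams and 0 in the Late and the Young shams. With batch as a term they were 1 in the Early and 0 in the Young shams; this term cannot be estimated for the Late and the Old shams. Without the count filter Young Late BZ had 0 and the Late IZ age difference 1. DESeq2 size factors gave 1, and leaving out mitochondrial genes 1, between the Old shams. Limma-voom with a random replicate block for the animal gave 0 in Young Late BZ and 4 in the Late IZ age difference. Counts over all genes follow. In the order above, the DESeq2 test called 557, 2692, 591, 1051, 596, 2541, 5071, 2051 and 102 of 14537 genes, and 1015 of 14386. The compared groups alone gave 800 of 13929 and 3118 of 13516 for the differences. For the shams they gave 6613 of 12796, 2425 of 12764, 1744 of 12588 and 950 of 12906. RNA integrity gave 1792, 599, 1403, 133 and 597 of 14537, and batch 1400 and 698.

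For Old Late IZ against BZ (10 in the report), the count was 2 with no replicate block, 6 with DESeq2 size factors, 5 with the earlier estimate of the spread, 5 without the filter and 0 with the pig of the conflicting label. Without the block Young Early IZ against BZ had 14 (19 in the report). As a median over the genes, the level differed from sham by -0.85 in Young Early IZ, -0.96 in Old Late BZ and -1.81 in Old Late IZ.

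With 1 library left out, counts ran from 13 to 21 in Young Early IZ, 0 to 1 in Young Early BZ, 6 to 9 in Young Late IZ, 0 to 1 in Young Late BZ, 15 to 21 in Old Early IZ, 7 to 14 in Old Early BZ, 19 to 23 in Old Late IZ and 9 to 16 in Old Late BZ. They ran from 0 to 1, 0 to 7 and 0 to 7 in the Early IZ, Early BZ and Late IZ age differences, 0 to 3 in the Young IZ time difference, and 1 to 6, 1 to 3, 0 to 3 and 0 to 1 in the Early, Late, Young and Old shams. IZ against BZ gave 9 to 13 in Young Early and 0 to 0 in Old Late. Shares of all genes called moved in such fits too. They ran from 15.6% to 26.3% in Young Early IZ (27.2% in the main fit). In Young Late IZ they ran from 19% to 30% (30.2%), and in Old Early BZ from 13.3% to 18.2% (22.5%). The shares for the other ranges of this paragraph are not given here. The cause of these differences was not tested; with 3 libraries a group, and UCP3 at 0 to 212 counts, small changes cannot be read.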
